A study of Homo sapiens with 12 samples.

Results

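A set of 7 surface protein genes of the Ly6/uPAR family was followed through a pulse of type I interferon, its withdrawal and a later pulse in AC16 cells: LY6E, LY6K, LYPD1, LYPD3, LYPD6, LYPD6B and PLAUR. They were the rows of the count table whose Ensembl identifier maps to these 7 symbols, of 60649 gene identifiers in all, and all 7 passed the filter on low counts. The set was chosen by values of these same libraries: LYPD1 kept the largest share of its acute rise after interferon was removed, while LYPD6B was lower late. Those values describe the genes here and are not tested.

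AC16 is an established human cell line described as ventricular cardiomyocyte in kind. There were 4 groups of 3 libraries, all from wild-type cells of this line. Repeat cells received interferon alpha-2a at 1000 U/mL for 24 h, had 4 days without it and then another 24 h with it. Recovery cells received the 24 h pulse and 5 days without interferon, acute cells were taken straight after a 24 h pulse, and vehicle cells received phosphate-buffered saline. Every vehicle library is labelled 24 h, so the effect of a past pulse and of time in culture cannot be told apart where repeat or recovery is set against vehicle or acute. The repeat libraries are labelled day 7, although their steps sum to 6 days. Poly(A) RNA was sequenced as 75 bp single reads, and libraries held 39.9 to 62.3 M estimated counts (1 M is 1000000). The labels give all 12 a single batch.

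The Ly6/uPAR fold is a small disulphide-bonded domain with finger-like loops. Most of its human carriers are held at the outer membrane leaflet by a glycosylphosphatidylinositol (GPI) anchor, and many act as receptors or as modulators of neighbouring receptors. PLAUR encodes uPAR, the urokinase receptor, which focuses plasminogen activation at the cell surface and signals through integrins. LY6E is an interferon-stimulated gene whose product restricts the entry of coronaviruses and favours that of some other viruses. LYPD1, LYPD6 and LYPD6B have been linked to nicotinic acetylcholine receptors, and LYPD6 also to Wnt signalling. LYPD3, also named C4.4A, is best known from squamous epithelium and binds laminins, and LY6K is a testis protein that is also found in tumours.

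The windows from 250 bases before to 50 bases after annotated starts were read for motifs of factors named in interferon and stress signalling. RefSeq (GRCh38.p14) gave 8 such windows for 5 of the genes, LYPD1, LYPD3, LYPD6, LYPD6B and PLAUR. Both strands were searched for GAAA repeats with 2 bases between them, the core of the interferon-stimulated response element, for TTCNNNGAA, the interferon-gamma-activated site bound by STAT dimers, and for TGANTCA, the AP-1 site. Of 34796 distinct windows of the same length, 3.57% held the first, 7.67% the second and 7.73% the third. None of the 8 windows held the response element core. LY6E and LY6K had no window here, so neither was searched. A LYPD1 window held the STAT motif at -184 and AP-1 motifs at -217 and -210 from the annotated start, and the PLAUR window held an AP-1 motif at -186. The other LYPD1 window and those of LYPD3, LYPD6 and LYPD6B held none of the 3. Matches describe letters and are not binding sites, and the count table does not say which start was used. The windows with a match are printed with the matched letters in capitals (the STAT motif and the AP-1 motifs do not overlap), followed by a LYPD6B window as the gene that was lower late. They are LYPD1 at chr2:132671477-132671776 on the minus strand, PLAUR at chr19:43670120-43670419 on the minus strand and LYPD6B at chr2:149077272-149077571 on the plus strand.
LYPD1: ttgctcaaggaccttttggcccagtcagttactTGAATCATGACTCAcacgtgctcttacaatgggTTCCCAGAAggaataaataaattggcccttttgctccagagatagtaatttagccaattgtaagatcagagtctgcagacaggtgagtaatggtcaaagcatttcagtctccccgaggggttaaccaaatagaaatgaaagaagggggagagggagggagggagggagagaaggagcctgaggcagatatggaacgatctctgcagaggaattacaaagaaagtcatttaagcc
PLAUR: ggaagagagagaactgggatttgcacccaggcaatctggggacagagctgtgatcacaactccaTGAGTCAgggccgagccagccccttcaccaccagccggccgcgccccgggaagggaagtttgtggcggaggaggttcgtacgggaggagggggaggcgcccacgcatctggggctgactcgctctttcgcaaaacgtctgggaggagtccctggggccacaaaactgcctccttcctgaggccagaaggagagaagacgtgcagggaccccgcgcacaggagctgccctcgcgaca
LYPD6B: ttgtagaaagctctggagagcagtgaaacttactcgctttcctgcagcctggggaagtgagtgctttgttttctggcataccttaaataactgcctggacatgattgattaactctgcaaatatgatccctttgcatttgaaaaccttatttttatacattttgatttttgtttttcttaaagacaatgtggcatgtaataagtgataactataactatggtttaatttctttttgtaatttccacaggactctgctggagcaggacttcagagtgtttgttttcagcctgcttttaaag

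The interferon response itself was large and, for the most part, reversed. MX1, an antiviral GTPase and interferon marker, had 792, 799 and 814 CPM in repeat libraries, 7.82, 7.19 and 8.02 CPM in recovery libraries, 783, 767 and 767 CPM in acute libraries, and 4.68, 3.05 and 2.92 CPM in vehicle libraries (CPM are counts per 1000000, scaled by TMM). The cells carried few transcripts of contractile cardiac genes. Of 14 cardiomyocyte markers 3 passed the filter, with 1482 counts for ACTN2, 238 for ACTC1 and 216 for NPPB in all libraries together. TNNT2 (cardiac troponin T) had 31 counts in all libraries together, and MYL7 and MYBPC3 had none. All 10 fibroblast markers passed the filter, with summed levels of 1850 to 1950 TPM in repeat, 2340 to 2410 TPM in recovery, 2100 to 2230 TPM in acute and 2730 to 2810 TPM in vehicle libraries (TPM are transcripts per 1000000, scaled by gene length). Of 6 leukocyte markers 4 passed the filter, with summed levels of 274 to 286 TPM in repeat, 138 to 146 TPM in recovery, 269 to 294 TPM in acute and 111 to 117 TPM in vehicle libraries. CD68, which encodes a lysosomal membrane protein, made up nearly all of that sum at 110 to 293 TPM and rose by 1.30 ± 0.03 in acute over vehicle, while PTPRC (CD45) did not pass 2.51 TPM and CD3E had no count. Of 6 keratinocyte markers 2 passed, KRT10 at 15.4 to 17.9 TPM and KRT14 at 0.721 to 2.86 TPM, and KRT1 had no count. Of 6 neuron markers 4 passed, with summed levels of 124 to 139 TPM over all libraries, of which TUBB3, a tubulin gene, had 114 to 129 TPM. Of 6 endothelial markers 4 passed, with sums of 1.86 to 2.37 TPM. In recovery over vehicle the cardiomyocyte markers ACTN2, NPPB and ACTC1 were at 0.99, -1.71 and 0.34 on the log2 scale, the last not called. The ACTN2 call was lost on log2(TPM + 0.1) (0.945, limma adjusted p = 0.429). The part of any of the markers above in the results was not tested. In bulk RNA, fewer cells of a type and less RNA per cell cannot be told apart.

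The 7 genes spanned a wide range of levels per length. In vehicle libraries LY6K averaged 102 ± 3.72 TPM, PLAUR 70.0 ± 2.27 TPM, LY6E 28.6 ± 1.35 TPM, LYPD6B 6.89 ± 0.701 TPM, LYPD1 2.09 ± 0.298 TPM, LYPD6 1.94 ± 0.236 TPM and LYPD3 0.467 ± 0.0998 TPM (SD, n = 3 each). LYPD1 and LYPD6 overlapped between libraries, and all other neighbours in this order were apart. Interferon placed LY6E at the head: it led in repeat libraries at 238 ± 8.68 TPM and in acute libraries at 202 ± 5.71 TPM, while LY6K led in recovery at 121 ± 1.31 TPM. In repeat libraries LYPD1 at 4.94 ± 0.11 TPM overlapped LYPD6B at 4.88 ± 0.607 TPM, the only neighbours of that group to do so.

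**Figure D1:**
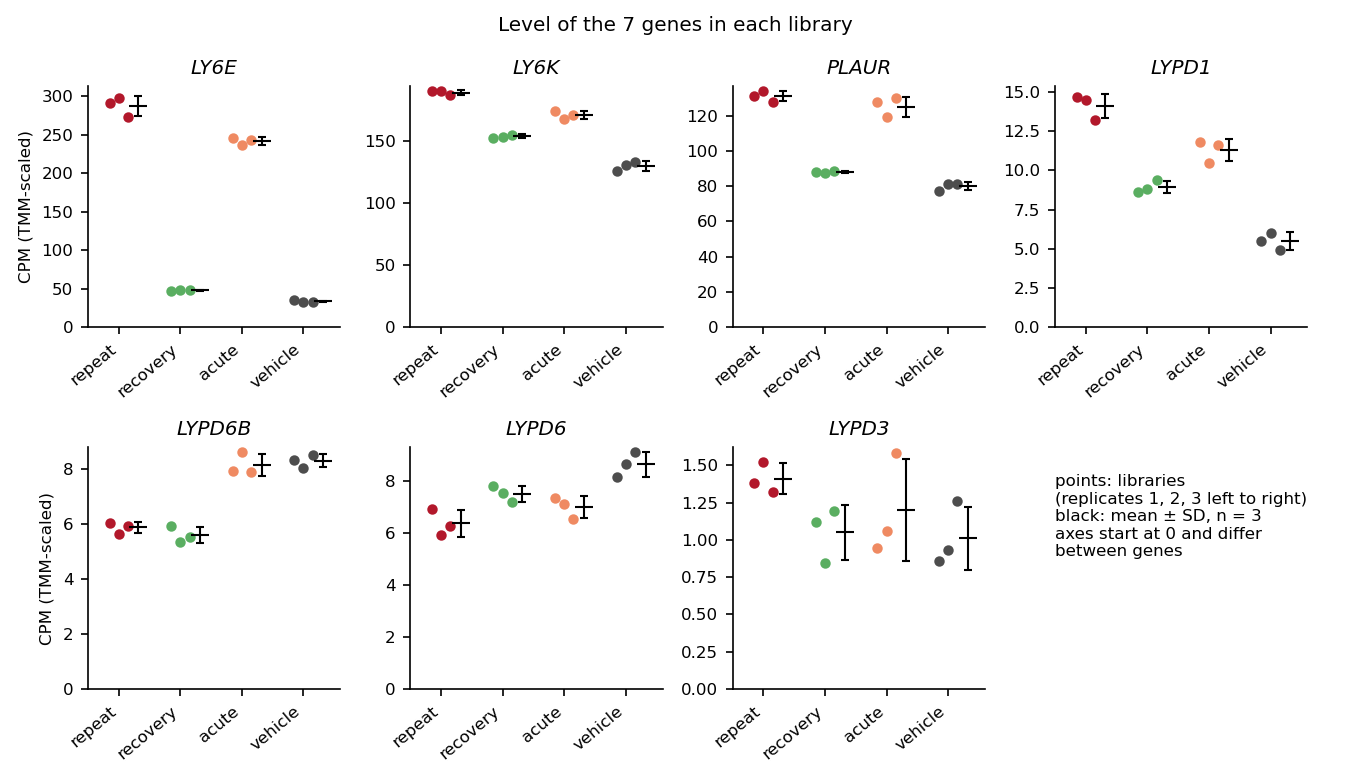
Level of each gene in every library, in CPM on linear axes that start at 0 and differ between genes. Points are libraries grouped as repeat, recovery, acute and vehicle, and black bars are the mean and SD of 3 libraries. The 4 LYPD1 groups do not overlap, and the LYPD6B libraries of repeat and recovery, at 5.35 to 6.02 CPM, lie under all acute and vehicle libraries.

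LY6E, the member known as an interferon-stimulated gene, had the widest range. It had 291, 298 and 273 CPM in repeat libraries, 47.6, 47.9 and 48.4 CPM in recovery libraries, 246, 236 and 243 CPM in acute libraries, and 34.9, 32.9 and 33.4 CPM in vehicle libraries. No groups overlapped: recovery libraries sat just above vehicle, and repeat libraries above acute. The log2 fold change was 2.84 ± 0.032 (standard error) in acute over vehicle and 0.51 ± 0.036 in recovery over vehicle. These contrasts entered the choice of the genes, so they carry no test. Here 4 of the 7 genes were called higher and 1 lower in acute over vehicle, against 43.8% of all 18119 genes called (22.3% higher and 21.5% lower). In recovery over vehicle, 4 were called higher and 1 lower, against 5.94% of all genes (3.03% higher and 2.91% lower). LYPD1, among the higher, and LYPD6B, the lower, were chosen for such values. Groups were apart for 52.8% of all genes in the first of these comparisons and for 23.6% in the other. Nothing is read from these counts.

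Repeat over recovery was not used in choosing the genes, although its recovery libraries were. LYPD1 and LYPD6B, chosen through levels in those libraries, are described only, and the other members were tested. LY6E, PLAUR and LY6K rose, LYPD6 fell, and LYPD3 did not pass the test. Of all 7 genes 4 were called higher, with the described LYPD1 among them, and 1 lower. Over all genes tested 41.6% were called (21.1% higher and 20.5% lower). LY6E rose by 2.58 ± 0.031 on the log2 scale (edgeR quasi-likelihood F test, Benjamini-Hochberg adjusted p = 9.11e-30). The median of the 7 was 0.42 and that of all genes tested was 0.00.

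LY6E also reached a higher level in repeat cells than in acute cells, although its rise over recovery was smaller than the first rise over vehicle. Repeat over acute was 0.25 ± 0.027 (edgeR adjusted p = 1.13e-06), with all 3 repeat libraries above all 3 acute ones, a comparison with 4.2% of all genes called. The response to the later pulse (repeat over recovery) minus the response to the first (acute over vehicle) was -0.26 ± 0.045, in a contrast with 0.651% of all genes called. It holds the values of acute over vehicle and is given as a description for all 7 genes. On log2(TPM + 0.1) the values were 0.239 for repeat over acute, which was not called (limma adjusted p = 0.138), and -0.226 for the difference of responses. LY6E-DT, a noncoding RNA on the opposite strand that shares 88 exonic bases with LY6E on chromosome 8 (143017982 to 143023832, plus strand), rose by 2.22 ± 0.282 in acute over vehicle and by 1.80 ± 0.253 in repeat over recovery. Whether counting used the strand is not given in the sources used here, so reads of overlapping genes cannot be told apart.

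**Figure D2:**
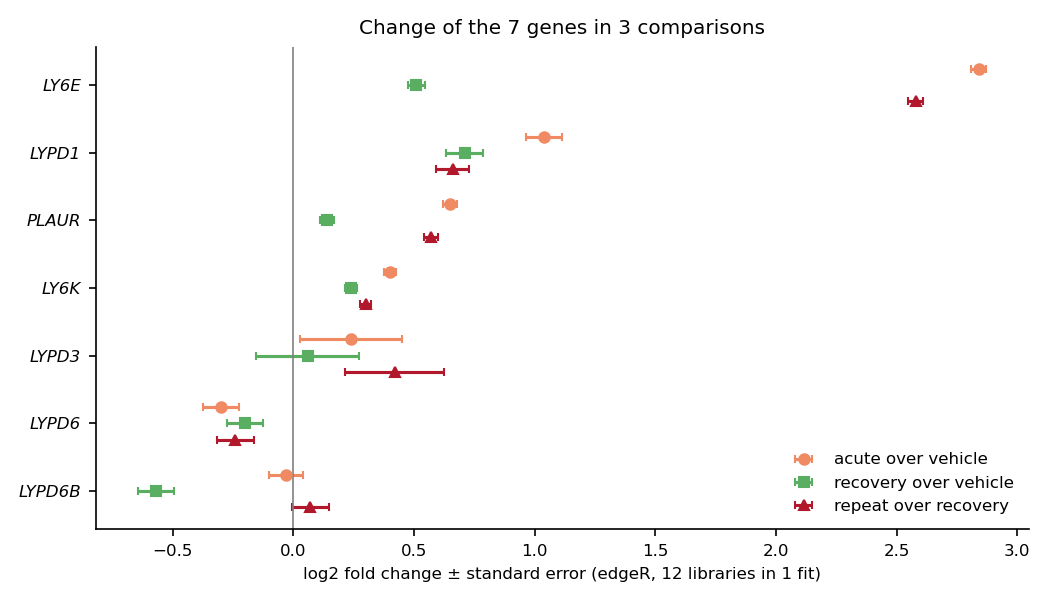
Log2 fold changes of the 7 genes with standard errors, for acute over vehicle, recovery over vehicle and repeat over recovery. LY6E moves most, at 2.84 in acute over vehicle. LYPD6B is near 0 in acute over vehicle and in repeat over recovery and at -0.57 in recovery over vehicle.

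PLAUR, the urokinase receptor, followed interferon and lay close to vehicle in recovery. It had 131, 134 and 128 CPM in repeat libraries, 87.8, 87.4 and 88.6 CPM in recovery libraries, 128, 119 and 130 CPM in acute libraries, and 77.3, 81.2 and 81.1 CPM in vehicle libraries. Repeat and acute libraries overlapped, and recovery libraries lay between these and vehicle. The log2 fold change was 0.65 ± 0.029 in acute over vehicle and 0.14 ± 0.03 in recovery over vehicle. The recovery call, among those counted above, was lost with an offset for the gene length that counts and TPM imply (0.168). It was also lost on log2(TPM + 0.1) (0.165) and log2(TPM + 1) (0.163). PLAUR rose by 0.57 ± 0.029 in repeat over recovery (edgeR adjusted p = 1.5e-15). Repeat over acute was 0.06 ± 0.028 (edgeR adjusted p = 0.277), and the responses to the later and the first pulse differed by -0.08 ± 0.041, as a description. CD68 also rose, by 1.06 ± 0.029 in repeat over recovery and by 0.30 ± 0.031 in recovery over vehicle.

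Plasminogen activation, in which the receptor acts, was followed through 19 listed genes, of which 14 were tested. In acute over vehicle 7 rose and 3 fell, where 43.8% of all genes were called, with a median log2 fold change of 0.17 against 0.00 over all genes. SERPINB2 (PAI-2), an inhibitor of urokinase, rose by 2.01 ± 0.063. F3, tissue factor, the cell-surface trigger of coagulation, rose by 1.03 ± 0.025. In repeat over recovery 8 rose and 2 fell, where 41.6% of all genes were called, with a list median of 0.23. SERPINB2 was at 1.75 and F3 at 1.00.

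PLAU, which encodes urokinase, the ligand of uPAR, stayed raised after withdrawal in the counts. It had 39.9, 37.0 and 37.8 CPM in repeat libraries, 22.3, 24.1 and 24.3 CPM in recovery libraries, 25.4, 26.4 and 25.0 CPM in acute libraries, and 14.1, 14.0 and 17.0 CPM in vehicle libraries. Recovery libraries were nearer to acute than to vehicle, and repeat libraries stood above all others. PLAU rose by 0.77 ± 0.06 in acute over vehicle (edgeR adjusted p = 4.91e-10) and by 0.65 ± 0.06 in recovery over vehicle (edgeR adjusted p = 2.83e-07). It rose by 0.58 ± 0.053 in repeat over acute (edgeR adjusted p = 8.66e-07). On log2(TPM + 0.1) the changes were 0.543 in recovery over vehicle and 0.46 in repeat over acute, and neither was called (limma adjusted p = 0.232 and 0.381). The TPM of recovery libraries, 7.32 to 8.86, overlapped that of vehicle libraries, 4.59 to 7.41, through vehicle replicate 3.

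Of the CPM gained in acute cells, recovery cells still had 80.4% for PLAU (68.1% on TPM), against 17.7% for its receptor PLAUR (22.4% on TPM), 3.95% for SERPINB2 and 1.02% for F3. Leaving out any single library moved the PLAU share between 77.1% and 86.1% and the PLAUR share between 15.3% and 18.9%. In recovery over vehicle 2 of the 14 tested genes rose and none fell, where 5.94% of all genes were called. The other was SERPINE2, a protease inhibitor that also binds urokinase, at 0.30 ± 0.035 (edgeR adjusted p = 1.33e-05).

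**Figure D3:**
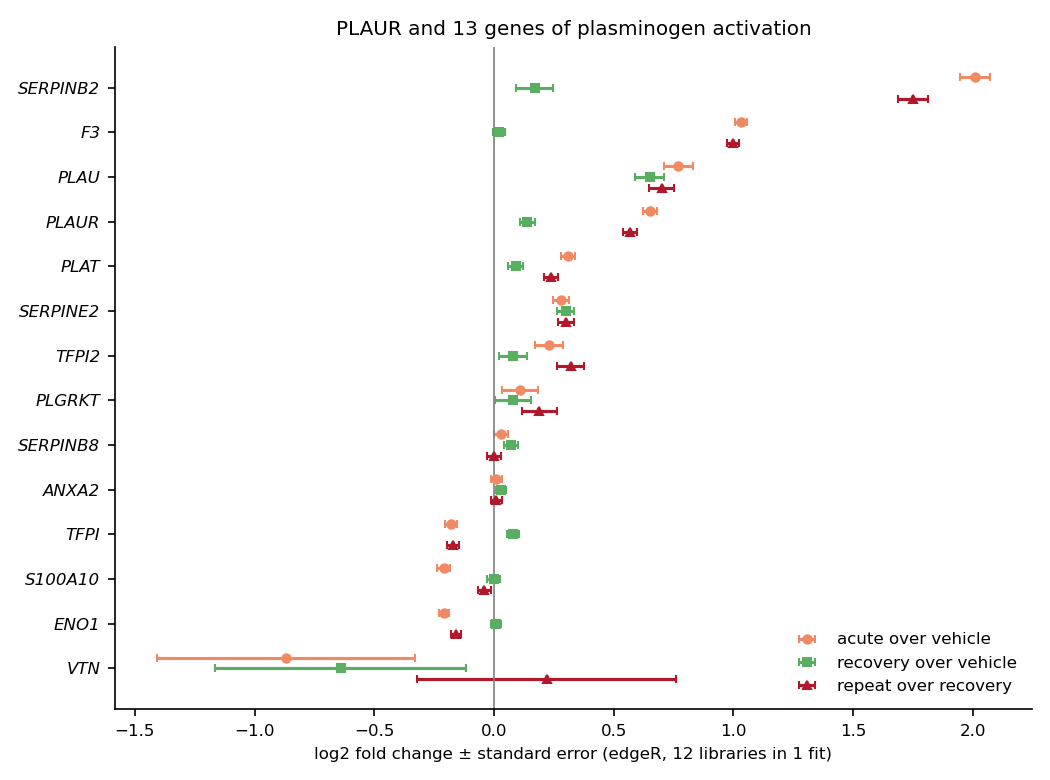
Log2 fold changes with standard errors of PLAUR and 13 of the 14 tested genes of plasminogen activation, ordered by acute over vehicle. PLAU and SERPINE2 stand apart from 0 in recovery over vehicle, at 0.65 and 0.30, and SERPINB2 and F3 lie nearer 0 there than in the other comparisons.

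Integrins and other partners and clearance receptors of uPAR moved both ways. Of 23 listed genes 17 were tested, of which 6 rose and 6 fell in acute over vehicle and 4 rose and 7 fell in repeat over recovery, against 43.8% and 41.6% of all genes called. The list medians were 0.00 and -0.04. ITGA5, the fibronectin receptor subunit, rose by 0.67 ± 0.021 in acute over vehicle and by 0.57 in repeat over recovery. ITGA4 fell by 0.57 ± 0.031 and by 0.53 in the same comparisons, and SORL1, a clearance receptor of the LDL receptor family, fell by 1.02 ± 0.103 and by 0.92. FPR1, a chemotactic receptor that uPAR fragments engage, rose by 1.55 ± 0.371 in acute over vehicle at no more than 0.516 CPM in any library, a call lost on log2(TPM + 0.1) (0.936, limma adjusted p = 0.0697). On that scale the repeat over recovery calls of ITGA4 (-0.278) and SORL1 (-0.730) also missed the threshold, with limma adjusted p = 0.0502 and 0.0733. In recovery over vehicle 5 rose and 2 fell, against 5.94% of all genes called. Of these ITGA6 was at 0.24 and ITGB3 at -0.23. Both calls were lost on log2(TPM + 0.1), at 0.210 and -0.249, with limma adjusted p = 0.438 and 0.351. ITGA5, EGFR and MRC2, called at 0.08, 0.12 and -0.16, also lost their calls on that scale. They were at 0.018, 0.099 and -0.237 there, with limma adjusted p = 0.958, 0.644 and 0.445.

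LYPD1 was the member whose raised level persisted most in the counts. It had 14.7, 14.5 and 13.2 CPM in repeat libraries, 8.63, 8.83 and 9.37 CPM in recovery libraries, 11.8, 10.5 and 11.6 CPM in acute libraries, and 5.50, 6.04 and 4.94 CPM in vehicle libraries. The 4 groups did not overlap, and recovery lay between acute and vehicle. The log2 fold change was 1.04 ± 0.075 in acute over vehicle, 0.71 ± 0.077 in recovery over vehicle and -0.34 ± 0.07 in recovery over acute, given as a description. Repeat over recovery was 0.66 ± 0.067, also as a description, because its recovery libraries entered the choice of LYPD1. As a description, repeat over acute was 0.32, and the response to the later pulse minus that to the first was -0.38 ± 0.101.

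Recovery cells kept 59.5% of the LYPD1 CPM gained in acute cells, with a range of 55.8% to 62.3% when any single library was left out. Among 173 genes averaging 5 CPM or more that were called and at least doubled in acute over vehicle, none had a larger share. LYPD1 was chosen for this share, so its rank restates the choice and is not a test. The next was ITGA2 at 53.5%, the median was 3.34% and the upper quartile was 9.54%. The rank holds within that cutoff only, as PLAU, less than doubled at a log2 fold change of 0.77, kept 80.4%. LY6K kept 57.1% of a smaller rise (54.8% to 59.2%), and LY6E kept 6.86% (6.67% to 7.13%). On TPM, a scale added after the data were seen, the LYPD1 share was 47.1% and the LY6K share 52.7%, so the order of these genes turned round. The gene length that counts and TPM imply varied between libraries by 9.58% for LYPD1 (coefficient of variation), against a median of 4.6% over 9015 genes and 2.11% for LY6K. Its part in the difference was not tested.

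**Figure D4:**
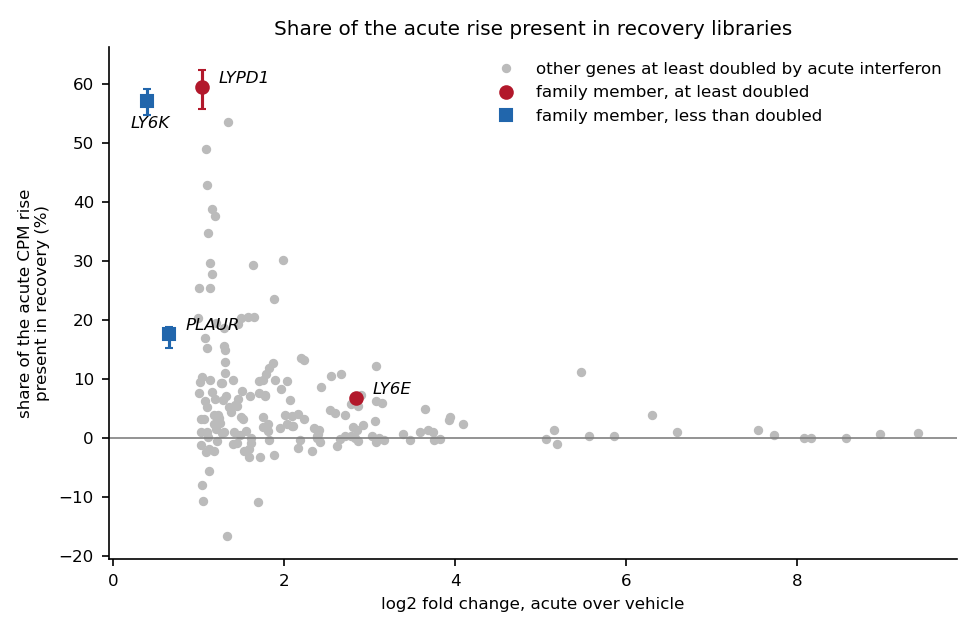
Share of the acute CPM rise present in recovery against the log2 fold change of acute over vehicle. Grey points are the other genes at least doubled in acute cells, and bars on the family members span the values without any single library. LYPD1, chosen for this share, is the highest point at 59.5%, near LY6K at 57.1%, while LY6E at 6.86% lies among the genes that returned.

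LYPD1 lies on chromosome 2 (132643286 to 132671579, minus strand). It shares 1180 exonic bases with GPR39, a zinc-sensing receptor gene on the opposite strand, and its annotated start is 209 bases from the end of NCKAP5 on the same strand. GPR39 had 16.9, 15.9 and 17.5 CPM in repeat libraries, 12.7, 11.8 and 11.9 CPM in recovery libraries, 14.0, 13.8 and 14.6 CPM in acute libraries, and 10.5, 10.5 and 11.5 CPM in vehicle libraries. It rose by 0.38 ± 0.057 in acute over vehicle and by 0.46 ± 0.054 in repeat over recovery, and was at 0.16 ± 0.058 in recovery over vehicle (edgeR adjusted p = 0.101). NCKAP5 was at -0.20 in acute over vehicle and 0.20 in recovery over vehicle, neither of which passed the test (edgeR adjusted p = 0.104 and 0.29). The share of LYPD1 counts that could come from reads of GPR39 was not tested.

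LYPD6B and LYPD6 are neighbours on chromosome 2, on the plus strand and 114723 bases apart (149038107 to 149215262 and 149329985 to 149474138). LYPD6B had 6.02, 5.63 and 5.93 CPM in repeat libraries, 5.92, 5.35 and 5.50 CPM in recovery libraries, 7.90, 8.60 and 7.87 CPM in acute libraries, and 8.32, 8.03 and 8.51 CPM in vehicle libraries. Acute and vehicle overlapped, and both later groups lay under them and overlapped each other. The log2 fold change was -0.03 ± 0.071 in acute over vehicle, -0.57 ± 0.074 in recovery over vehicle and -0.50 ± 0.072 in repeat over vehicle, as a description. In repeat over recovery it was 0.07 ± 0.076, also as a description. Of the 10 fibroblast markers 9 fell and none rose in recovery over vehicle, where 5.94% of all genes were called, and 8 fell and none rose in acute over vehicle, where 43.8% were. LUM was at -0.66 in recovery over vehicle and -0.95 in acute over vehicle, DCN at -0.41 and -0.78, PDGFRB at -0.23 and -0.58, and FAP at -0.18 and -0.65. LUM, DCN, PDGFRB and FAP were lower in acute libraries, while POSTN overlapped vehicle there, and so did LYPD6B. POSTN was at -0.60 ± 0.041 in recovery over vehicle and at -0.03 ± 0.039 in acute over vehicle. On log2(TPM + 0.1) the recovery calls of DCN (-0.492) and COL3A1 (-0.424, against -0.37 in the counts) were lost, with limma adjusted p = 0.0526 and 0.0922. Those of PDGFRB (-0.292) and FAP (-0.181) were lost there too, with limma adjusted p = 0.249 and 0.0795. The part of these markers in the LYPD6B level was not tested.

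LYPD6 had lower CPM in every interferon-exposed library than in any vehicle library. It had 6.94, 5.93 and 6.26 CPM in repeat libraries, 7.82, 7.54 and 7.20 CPM in recovery libraries, 7.37, 7.14 and 6.55 CPM in acute libraries, and 8.18, 8.67 and 9.14 CPM in vehicle libraries. Vehicle libraries were above all others, and repeat libraries were under all recovery libraries. The log2 fold change was -0.30 ± 0.076 in acute over vehicle and -0.20 ± 0.076 in recovery over vehicle. Among the calls counted above, LYPD6 was lower in acute over vehicle and not called in recovery over vehicle. The acute call was lost with an offset for the gene length that counts and TPM imply (-0.334) and on log2(TPM + 0.1) (-0.290) and log2(TPM + 1) (-0.196). On TPM the recovery libraries, at 1.69 to 1.80, overlapped vehicle libraries, at 1.70 to 2.17. LYPD6 fell by 0.24 ± 0.077 in repeat over recovery (edgeR adjusted p = 0.0138). That call was lost without recovery replicate 1 (-0.210, edgeR adjusted p = 0.0624), without repeat replicate 2 (-0.185, edgeR adjusted p = 0.0915) and on log2(TPM + 0.1) (-0.305, limma adjusted p = 0.169). KIF5C, a kinesin gene 11348 bases on the other side of LYPD6B, fell by 0.67 ± 0.132 in acute over vehicle and was at 0.18 ± 0.124 in recovery over vehicle (edgeR adjusted p = 0.53).

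The receptors these 3 proteins have been linked to were sparse or moved both ways. Of 16 nicotinic receptor subunits 5 were tested. CHRNA1 rose by 1.64 ± 0.535 in acute over vehicle, at no more than 0.303 CPM in any library, and CHRNA5 rose by 0.27 ± 0.077, where 43.8% of all genes were called. The CHRNA1 call was lost without vehicle replicate 2, acute replicate 1 or acute replicate 3. In recovery over vehicle edgeR called 0 of the 5 (0 at an unadjusted p under 0.05, and 0 by DESeq2 and by limma-voom).

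Of 32 Wnt receptors and modulators 21 were tested. In acute over vehicle 7 rose and 4 fell, against 43.8% of all genes called, and in repeat over recovery 6 rose and 8 fell, against 41.6%. The Wnt receptor gene FZD8 rose by 0.90 ± 0.052 and the Wnt inhibitor gene DKK1 by 0.60 ± 0.02 in acute over vehicle, while LGR5, a receptor for R-spondins, fell by 0.82 ± 0.063, a fall of the same size but not called on log2(TPM + 0.1) (-0.823, limma adjusted p = 0.15). SFRP1, which encodes a secreted Wnt antagonist, was raised late. It averaged 99.2 ± 1.44 CPM in repeat libraries, 109 ± 5.35 CPM in recovery libraries, 65.8 ± 1.51 CPM in acute libraries and 61.8 ± 1.42 CPM in vehicle libraries (SD, n = 3 each). It rose by 0.81 ± 0.031 in recovery over vehicle (edgeR adjusted p = 1.73e-16). In that comparison 2 of the list rose and 1 fell, against 5.94% of all genes called. The other rise, of FZD8 at 0.27, was not called on log2(TPM + 0.1) (0.236, limma adjusted p = 0.287). The fall, of LGR4, turned round on that scale.

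LY6K, the testis and tumour antigen, was the most abundant of the 7 per length in vehicle cells. It had 190, 190 and 187 CPM in repeat libraries, 152, 153 and 155 CPM in recovery libraries, 174, 168 and 171 CPM in acute libraries, and 126, 131 and 133 CPM in vehicle libraries. No groups overlapped, in the order repeat, acute, recovery and vehicle. The log2 fold change was 0.40 ± 0.024 in acute over vehicle and 0.24 ± 0.024 in recovery over vehicle. LY6K rose by 0.30 ± 0.023 in repeat over recovery (edgeR adjusted p = 2.27e-11) and by 0.14 ± 0.023 in repeat over acute (edgeR adjusted p = 0.000512). The rise over acute was not called on log2(TPM + 0.1) (0.141, limma adjusted p = 0.217). The responses to the later and the first pulse differed by -0.10 ± 0.033, as a description. LNCOC1, a noncoding RNA on the opposite strand, shares 3271 exonic bases with LY6K on chromosome 8 (142700111 to 142705127, plus strand). It was at 0.33 ± 0.124 in acute over vehicle and at 0.07 in repeat over recovery (edgeR adjusted p = 0.0341 and 0.688). The first was not called in a fit of acute and vehicle libraries alone with the replicate block (0.329, edgeR adjusted p = 0.0663). That call was also lost with DESeq2, upper quartile factors and the gene length offset, and on log2(TPM + 0.1) (0.193, limma adjusted p = 0.534). It was lost as well without vehicle replicate 1, vehicle replicate 2, acute replicate 1 or acute replicate 2.

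LYPD3 had the fewest reads of the 7, with 39 to 94 counts in a library. It had 1.38, 1.52 and 1.32 CPM in repeat libraries, 1.12, 0.844 and 1.19 CPM in recovery libraries, 0.944, 1.06 and 1.58 CPM in acute libraries, and 0.858, 0.928 and 1.26 CPM in vehicle libraries. Repeat libraries lay above all recovery and vehicle libraries and overlapped acute ones, and recovery, acute and vehicle overlapped one another. Repeat over recovery was 0.42 ± 0.204 (95% interval 0.02 to 0.82, edgeR adjusted p = 0.104), which did not pass the test. Groups were apart in this comparison for 49.4% of all genes. Of 8 listed ligands of LYPD3 6 were tested, and 5 rose and 1 fell in acute over vehicle, where 43.8% of all genes were called. LAMB3, a chain of laminin-332, rose by 1.11 ± 0.064 and LAMA3, another of its chains, fell by 0.72 ± 0.082, a call that was lost on log2(TPM + 0.1) (-0.176, limma adjusted p = 0.647). LAMB3 was also raised in recovery over vehicle, by 0.49 ± 0.066.

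Of 31 other family genes 29 were in the table, and 7 passed the filter. CD59, the GPI-anchored inhibitor of the complement membrane attack complex, was the most abundant of them at 108 to 152 TPM. It rose by 0.24 ± 0.028 in acute over vehicle (edgeR adjusted p = 8.06e-08) and by 0.16 in repeat over recovery. Its rise in recovery over vehicle, 0.13 ± 0.028 (edgeR adjusted p = 0.00252), was not called on log2(TPM + 0.1), at the same size (0.131, limma adjusted p = 0.321). PINLYP, a phospholipase A2 inhibitor gene, rose by 0.72 ± 0.085 in acute over vehicle and by 0.74 in repeat over recovery, and LYNX1 fell by 0.70 ± 0.227 in acute over vehicle at 25 to 50 counts. The LYNX1 call was lost without vehicle replicate 2, without acute replicate 1, with DESeq2 and on TPM. Of the 29 genes, 10 had no count in any library.

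All 32 listed genes of GPI anchor assembly and remodelling were tested. In acute over vehicle 13 rose and 4 fell, against 43.8% of all genes called, with a median of 0.05. PGAP1, which removes an acyl chain from the new anchor, fell by 0.72 ± 0.063, and in repeat over recovery it fell by 0.75. In recovery over vehicle edgeR called 0 of the 32 (5 at an unadjusted p under 0.05, and 0 by DESeq2 and by limma-voom).

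Genes with the pattern most like each of 4 members were ranked by the root mean square difference of their log2 fold changes over vehicle in repeat, recovery and acute cells, over 10919 genes averaging 5 CPM or more. The 3 values share the vehicle libraries. Nearest to LYPD1 were PODXL (0.083), G0S2 (0.101), MYEOV (0.101), NT5E (0.122) and LAMB3 (0.129). PODXL and NT5E encode the surface proteins podocalyxin and CD73. Nearest to LYPD6B were POSTN (0.045), STAG3L5P (0.113), CNN1 (0.116), ACTA2 (0.117) and MAP3K7CL (0.161). CNN1 and ACTA2 encode calponin and smooth muscle actin, and POSTN encodes periostin, a matrix protein. Nearest to LY6E were the interferon-induced genes PSMB9 (0.061), IFI44 (0.073), RIGI (0.145), SAMD9 (0.171) and UBE2L6 (0.184). Nearest to PLAUR were CTSO (0.023), ITPRIP (0.034), CHKB-DT (0.040), KLF6 (0.041) and SERTAD1 (0.045). Ranked on log2 TPM differences, 1 of the 5 was shared for LYPD1, 2 for LYPD6B, 3 for LY6E and 1 for PLAUR.

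**Figure D5:**
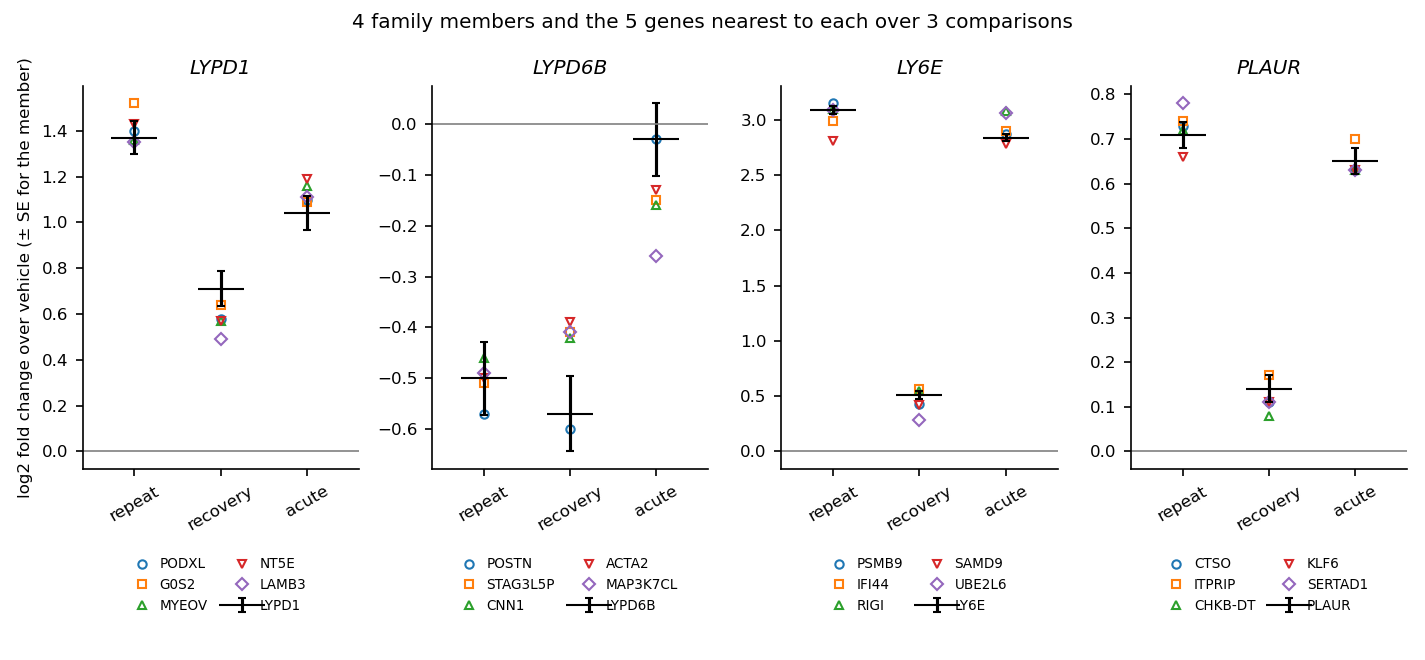
Log2 fold changes over vehicle in repeat, recovery and acute cells for LYPD1, LYPD6B, LY6E and PLAUR (black, with standard error) and the 5 genes nearest to each (symbols); axes differ between panels. POSTN, at -0.57, -0.60 and -0.03, follows LYPD6B most closely, and the genes near LYPD1 all lie under it in recovery.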

How the data were processed

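The authors deposited estimated counts for each gene without scaling across libraries, and TPM that summed to 1000000 in each library, per the file headers and the values themselves. STAR 2.7.11a, featureCounts 2.0.3, edgeR, Trim Galore 0.6.10 with cutadapt 4.3, and Picard are named in the submitters' processing notes, with GRCh38.p13. Per the labels' design text, GENCODE 41 was the annotation and replicates were independent. The design text also names DESeq2, and the labels name different media. Strand use in counting is not given in the sources used here. Of the nonzero counts 25.49% were not whole, so counts were rounded. Symbols and coordinates came from GENCODE 44 on GRCh38, with 60463 identifiers matched.

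Counts were fitted in R 4.3.3 with edgeR 4.0.16 (quasi-likelihood F test, robust, TMM, filterByExpr), in 1 fit of all 12 libraries with group means alone. After the filter 18119 genes remained, and the biological coefficient of variation was 2.67%. Calls were two-sided, at 0.05 after Benjamini-Hochberg adjustment across these genes. Replicate libraries differed by 1.77 to 3.01 times Poisson noise. P-values measure the spread among these libraries, and are too low where cultures were shared. CPM, log2 fold changes, shares and errors were computed here. The 7 genes and all lists were chosen with earlier results of these data known. Named genes were all 7, up to 4 of each list with the largest called change and groups that do not overlap, MX1 and ISG15, the 5 nearest patterns, and neighbouring or overlapping genes; a few that this rule names are not reported here. Alternatives used edgeR RLE and upper quartile factors, DESeq2 1.42.0, limma 3.58.1 (voom, or trend on log2 TPM with 0.1 or 1 added), a gene length offset, other filters, a replicate block and leaving out each library. By the correlation of deviations from group means, replicate numbers paired acute with vehicle libraries (0.4 to 0.474 for the 3 same-numbered pairs, -0.365 to -0.115 for the 6 others) and no other groups; the pairing comes from the data, not the labels.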

Additional observations from a re-analysis of the deposited data

Results flagged for a closer look

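The response to the later pulse (repeat over recovery) was set against the response to the first (acute over vehicle), in log2 units, by edgeR's quasi-likelihood F test of that difference. MX1 was at -1.02 and ISG15, a ubiquitin-like interferon-induced protein, at -0.53, with edgeR adjusted p = 0.0158 and 2.49e-07. MX1 had 792, 799 and 814 CPM in repeat libraries and 783, 767 and 767 CPM in acute libraries. Its recovery libraries, at 7.82, 7.19 and 8.02 CPM, were above its vehicle libraries, at 4.68, 3.05 and 2.92 CPM. ISG15 was at -0.003 ± 0.027 in repeat over acute (edgeR adjusted p = 0.98) and at 0.53 ± 0.035 in recovery over vehicle. Over all genes tested, 118 were called in this contrast, 40 higher and 78 lower.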

How the results depend on the processing

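Counts of called genes fell by more than 1.5 times with the gene length offset, log2(TPM + 0.1) and log2(TPM + 1). In that order they were 4416, 4329 and 4344 in acute over vehicle (main 7938), 178, 125 and 118 in recovery over vehicle (main 1076), 4777, 4667 and 4651 in repeat over vehicle (main 8391), 3914, 3843 and 3836 in recovery over acute (main 7448), 3971, 3830 and 3824 in repeat over recovery (main 7546), 10, 9 and 6 in repeat over acute (main 761), and 11, 5 and 3 for the later minus the first response (main 118). The last was 235 with DESeq2 and 333 with no filter. The cause was not tested. On log2(TPM + 0.1) recovery over acute had 1520 genes higher and 2323 lower (main 3696 and 3752), and recovery over vehicle 81 and 44 (main 549 and 527). Leaving out each library gave 624 to 1167 calls in recovery over vehicle (624 without vehicle replicate 1, 707 without recovery replicate 2 and 716 without recovery replicate 3), 337 to 1218 in repeat over acute (499, 377 and 337 without acute replicates 1, 2 and 3, and 1218, 360 and 430 without repeat replicates 1, 2 and 3) and 56 to 323 for the later minus the first response (323 without repeat replicate 1, and 56 to 68 without any other library but acute replicate 1, vehicle replicate 3 and repeat replicate 2). Under the same 3 settings LGR4 (0.103, 0.097 and 0.090) and LAMA3 (0.592, 0.567 and 0.364) reversed in recovery over vehicle, and PHLDB3, next to LYPD3, in repeat over recovery (-0.081, -0.052 and -0.049). No called change of the 7 genes reversed under any alternative run.

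Same-numbered acute and vehicle libraries deviated together, and those of the other pairs of groups did not in all 3 numbers (-0.332 to 0.173). With the replicate block the counts were 7983, 1125, 8409, 7494, 7565, 855 and 160 in the order above. The block called LYPD3 in repeat over vehicle and changed the call of no other gene named in the text. In a fit of acute and vehicle libraries alone, chosen after seeing the data, 8074 genes were called with the replicate block and 8026 without it. Of the genes named in the text, LNCOC1 lost its call in both fits. ACTN2 lost its call only in the fit with the block (0.388, edgeR adjusted p = 0.0622), and no other named gene lost its call. LYPD3 was also called in repeat over vehicle with voom, with the filter of at least 1 CPM, and without vehicle replicate 3 or acute replicate 3. With 39 to 94 counts, LYPD3 had the fewest reads of the 7 genes.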
